A study of Mus musculus with 9 samples.

Results

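Rag1, Rag2, Dntt, Vpreb1, Vpreb2, Igll1 and Vpreb3 were examined in lymphomas of Bcl6 and Smc3/Bcl6 mice. The genes were chosen by symbol, and 7 of the 41128 rows of the count table carried these symbols. Only 2 of the 7, Dntt and Vpreb3, had enough reads to pass the filter on low counts. The other 5 were compared on their counts and on CPM, their counts scaled to the library total with the TMM normalization factors.

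RAG1 and RAG2 form the recombinase that cuts immunoglobulin gene segments in precursor B cells and receptor gene segments in immature T cells. Terminal deoxynucleotidyl transferase, the product of Dntt, adds bases that no template encodes where the segments are joined. VpreB1 or VpreB2 pairs with λ5, the product of Igll1, to form the surrogate light chain, which joins the newly made heavy chain in the pre-B cell receptor before a light chain gene has been rearranged. These genes are switched off as B cells mature, and germinal center B cells normally lack them. Vpreb3 is related to Vpreb1 in sequence, and its product binds newly made immunoglobulin chains inside the cell, but the gene stays expressed in mature B cells.

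RNA was sequenced from 3 Bcl6 tumors and 6 Smc3/Bcl6 tumors, 1 library per tumor. Both genotypes carry the IµBcl6 transgene, which places Bcl6 in the immunoglobulin heavy chain locus and keeps it expressed in B cells, and both carry 1 Cγ1-Cre allele, a Cre recombinase driven from the Ighg1 locus and active in B cells on entry to the germinal center. Bcl6 mice are Smc3 wt/wt, and Smc3/Bcl6 mice are Smc3 wt/-, with 1 allele of this cohesin subunit deleted by Cre. Replicate 1 of each genotype is labelled as mesenteric lymph node and the other tumors as lymph node. The paper gives mesenteric lymph node as the source of the lymphoma cells of both genotypes. The label therefore sets replicate 1 apart and may not mark a different tissue. Ages are not given in the sources used here.

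The total count ranged from 10156728 to 17774577 per tumor. Smc3 ranged from 87.9 to 125.5 CPM in the Bcl6 tumors and from 27.9 to 110.5 CPM in the Smc3/Bcl6 tumors, and edgeR gave a log2 fold change of -0.19 with a standard error of 0.39 and an adjusted p of 1. Without Smc3/Bcl6 tumor 2, which had the 27.9 CPM, the value was 0.01 with a standard error of 0.14. The Smc3 counts cover the whole gene, so they do not test the deletion of the targeted exon. The paper reports reduced Smc3 expression in Smc3/Bcl6 tumors, measured by RT-qPCR, a method other than the counts used here. Smc3/Bcl6 tumor 2 stood apart, with a TMM factor of 0.693 against 0.965 to 1.10 in the other tumors. The quality weight that limma gave its library was 0.125, against 0.574 to 3.3 in the other tumors. Cd37, a surface molecule of B cells, lay between 209.8 and 1423 CPM, and Cd22 between 651.0 and 1578 CPM. Other genes of mature B cells or the B lineage were near 0 in some tumors, with Cr2 at 0.423 CPM in Smc3/Bcl6 tumor 2 and 1.81 CPM in tumor 5, and Pax5 at 2.96 CPM in tumor 2. The libraries also held T cell, myeloid and erythroid transcripts, with summed CPM of 8 T cell genes between 83.3 and 2446. In such bulk samples, fewer cells of a type and less RNA per cell cannot be told apart.

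Vpreb1 and Vpreb2 are close copies, and their coding sequences are shown because they limit how reads can be assigned to them. Both coding sequences have 429 bases, and 9 positions differ between them (97.9% identity). The last 160 bases, from position 270 of each, are printed as the sense strand of the GENCODE M21 transcripts of GRCm38, with the 6 positions that differ in them in capitals.
Vpreb1: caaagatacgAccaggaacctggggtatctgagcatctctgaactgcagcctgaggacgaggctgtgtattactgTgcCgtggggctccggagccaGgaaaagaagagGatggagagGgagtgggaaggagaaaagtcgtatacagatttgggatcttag
Vpreb2: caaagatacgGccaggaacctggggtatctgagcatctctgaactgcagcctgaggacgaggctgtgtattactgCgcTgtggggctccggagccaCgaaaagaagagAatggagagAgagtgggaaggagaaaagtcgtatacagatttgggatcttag
The longest run shared by the coding sequences was 196 bases, and 32.5% of the windows of 50 bases in the Vpreb1 transcript also occurred in the Vpreb2 transcript. Reads from such stretches cannot be told apart, and the counts of both genes are therefore uncertain. Vpreb3 shared no more than 12 bases in a row with Vpreb1. Igll1 shared no more than 20 bases in a row with the immunoglobulin λ constant genes it resembles, and it shared 0 windows of 50 bases with any of them.

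Rag1 (ENSMUSG00000061311.6) and Rag2 (ENSMUSG00000032864.4) are neighbors on chromosome 2 of GRCm38, Rag1 at chr2:101638282-101649501 on the minus strand and Rag2 at chr2:101624718-101632529 on the plus strand. Their reads were almost absent. Together they had 12 counts among the 125066749 counts of the 9 tumors, and 4 tumors had 0 counts for both genes. Rag1 had 0, 1 and 1 counts in Bcl6 tumors 1 to 3 and 0, 0, 4, 1, 0 and 0 counts in Smc3/Bcl6 tumors 1 to 6. Rag2 had 0, 3 and 0 counts in the Bcl6 tumors and 0, 0, 0, 0, 0 and 2 counts in the Smc3/Bcl6 tumors. A count of 0 allows up to 3 counts, which is between 0.156 and 0.317 CPM depending on the tumor. This floor is a one-sided limit, and the two-sided exact 95% Poisson intervals given beside values put the upper limit at 0 counts at 0.192 to 0.390 CPM. Floors and intervals cover counting error only. Rag1 exceeded that floor in 1 tumor, Smc3/Bcl6 tumor 3, with 4 counts or 0.209 CPM (exact 95% Poisson interval 0.0568 to 0.534), and Rag2 exceeded it in none. Part of the Rag1 and Rag2 exons overlaps exons of B230118H07Rik, by 80 bases on the same strand and 208 bases on the opposite strand, and the strand setting of the counting is not given in the sources used here.

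The genotypes overlapped for both genes, as they did for all 7 members, and groups that did not overlap were found for 0.484% of the genes tested. The difference in mean log2 CPM, Smc3/Bcl6 minus Bcl6, was -0.09 for Rag1 (p = 0.929, two-sided exact permutation test) and -0.21 for Rag2 (p = 0.667, the same exact test). A difference in the recombinase genes was not detectable at this depth. The smallest p that 3 tumors against 6 can give is 0.0238.

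Vpreb1 (ENSMUSG00000059305.5, chr16:16868403-16870843, minus strand), Vpreb2 (ENSMUSG00000059280.3, chr16:17980428-17981273, plus strand) and Igll1 (ENSMUSG00000075370.5, chr16:16860671-16863985, minus strand) lie on the same chromosome. The surrogate light chain genes had 63 counts in all, of which 44 came from Smc3/Bcl6 tumors 4 and 6. Igll1 made up most of these 44. It had 0, 0 and 1 counts in the Bcl6 tumors and 0, 0, 0, 24, 0 and 5 counts in the Smc3/Bcl6 tumors, so that 29 of its 30 counts were in Smc3/Bcl6 tumors 4 and 6. The level in tumor 4 was 1.59 CPM (exact 95% Poisson interval 1.02 to 2.37), and that in tumor 6 was 0.333 CPM (0.108 to 0.776). The lower bound in tumor 4 lay above the floor of every tumor. The mean log2 CPM was 0.65 higher in Smc3/Bcl6 tumors, a difference within the spread of the tumors (p = 0.833, two-sided exact permutation test), and 4 of the 6 Smc3/Bcl6 tumors had 0 counts. Without Smc3/Bcl6 tumor 4 the difference was 0.10.

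Vpreb1 was found at low counts in nearly all tumors and not only in those with Igll1. It had 3, 1 and 0 counts in the Bcl6 tumors and 3, 2, 3, 5, 5 and 8 counts in the Smc3/Bcl6 tumors, or 0.106 ± 0.140 CPM (SD, n = 3) and 0.306 ± 0.142 CPM (SD, n = 6). The groups overlapped, since Bcl6 tumor 1 was above 3 of the Smc3/Bcl6 tumors. The mean log2 CPM differed by 0.94 (p = 0.0952, two-sided exact permutation test), the smallest p among the 7 genes before any correction. The difference was 0.61 without Bcl6 tumor 3 (p = 0.286 by the exact test), and it was 1.69 with a prior count of 0.5. Among the tumors labelled lymph node the difference was 1.42, again with p = 0.0952 by the exact test, which is the smallest p that 2 tumors against 5 can give. Vpreb1 shares 108 exon bases with Top3b on the opposite strand, which had 12150 counts, and the part of these reads in the Vpreb1 counts was not tested. Vpreb2 had 1 count in each of Smc3/Bcl6 tumors 3, 4 and 6 and 0 in the others (difference of 0.26 in mean log2 CPM, p = 0.476 by the exact test).

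**Figure D1:**
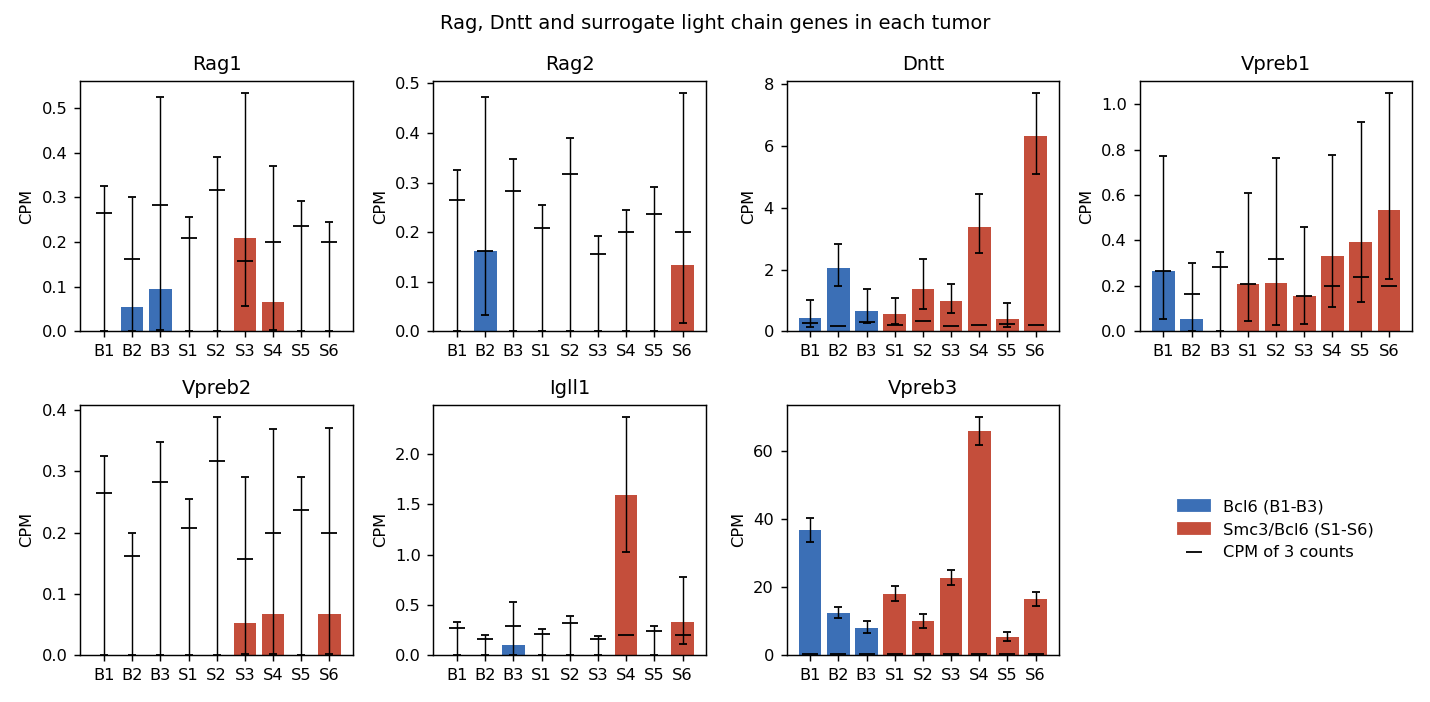
Level of each gene in CPM (vertical axes, different scales) in Bcl6 tumors 1 to 3 (B1-B3) and Smc3/Bcl6 tumors 1 to 6 (S1-S6), with exact 95% Poisson intervals as error bars and the CPM of 3 counts as dashes. Rag1, Rag2 and Vpreb2 reach no more than 0.209 CPM in any tumor, Igll1 reaches 1.59 CPM in S4, Dntt is highest in S6 at 6.32 CPM, and Vpreb3 lies between 5.20 and 66.0 CPM.

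Dntt (ENSMUSG00000025014.7, chr19:41029275-41059525, plus strand) had reads in every tumor, as did Vpreb3 and none of the other members. It had 5, 38 and 7 counts in the Bcl6 tumors and 8, 13, 19, 51, 5 and 95 counts in the Smc3/Bcl6 tumors, and 146 of its 241 counts came from Smc3/Bcl6 tumors 4 and 6. In CPM these levels were 0.440, 2.05 and 0.660 in the Bcl6 tumors and 0.554, 1.37, 0.991, 3.39, 0.394 and 6.32 in the Smc3/Bcl6 tumors. Tumors 4 and 6 were above all Bcl6 tumors, tumor 5 was below all of them, and the groups overlapped. The means were 1.05 ± 0.872 CPM (SD, n = 3) and 2.17 ± 2.30 CPM (SD, n = 6). In edgeR's quasi-likelihood fit Dntt had a log2 fold change of 1.02 with a standard error of 0.96 and an adjusted p of 1. The value was 1.92 without Bcl6 tumor 2 and 0.33 without Smc3/Bcl6 tumor 6, and with tumors of the same number as pairs it was 0.05 (standard error 0.71). Limma with quality weights gave 0.40 (standard error 0.93), and Bcl6 tumor 2, the Bcl6 tumor with the most Dntt, had the largest weight (3.3).

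Vpreb3 (ENSMUSG00000000903.3, chr10:75943057-75949657, plus strand) was the abundant member, with 2828 of the counts. Its level was 36.8, 12.3 and 8.02 CPM in the Bcl6 tumors and 17.9, 9.93, 22.8, 66.0, 5.20 and 16.4 CPM in the Smc3/Bcl6 tumors. The highest and the lowest tumor were both Smc3/Bcl6, and they differed 12.7-fold. The means were 19.1 ± 15.5 CPM (SD, n = 3) and 23.0 ± 22.0 CPM (SD, n = 6). In the same edgeR fit its log2 fold change was 0.28, with a standard error of 0.76 and an adjusted p of 1. The sign turned without Smc3/Bcl6 tumor 4 (-0.36) and without Bcl6 tumor 3 (-0.10), and it was 1.12 without Bcl6 tumor 1. With the tissue label as a covariate it was 0.65 (standard error 0.89).

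A gene was called changed where its log2 fold change exceeded 0.56 in either direction with an unadjusted p below 0.1. By this rule 0 of the 2 tested members were called, against 2.15% of the 14057 genes tested in either direction, 1.28% higher and 0.868% lower. At an adjusted p below 0.05, edgeR called 0 genes in all, with 79 genes (0.562%) at an unadjusted p below 0.05, and DESeq2 also called 0, with 209 at an unadjusted p below 0.05. Limma with quality weights called 0, with 1171 at an unadjusted p below 0.05. Exact permutation tests of log2 CPM gave p = 0.548 for Dntt and p = 0.929 for Vpreb3. Both genes varied widely among tumors of the same genotype, with a range over the 9 tumors of 3.59 log2 units for Dntt and 3.63 for Vpreb3, against a median range of 2.06 over all genes tested.

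Levels of different genes were compared per kilobase of exon. Vpreb3 had a median over the 9 tumors of 19.1 CPM per kilobase (range 6.06 to 76.9). Its mean of 25.3 was at or above the means of 83.1% of the genes tested. Dntt had a median of 0.432 CPM per kilobase (range 0.172 to 2.76). Its mean of 0.784 was at or above the means of 16.6% of the genes tested. Vpreb1 had a median of 0.176, and the median of the others was 0. The order was therefore Vpreb3, then Dntt, then Vpreb1, with no overlap between the ranges of Vpreb3 and Dntt, while the lowest levels of Dntt lay below the highest level of Vpreb1 (0.444).

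Vpreb3 was set beside other genes of mature B cells in the same libraries, a list of 7 that includes Ms4a1, Cr2, Fcer2a, Cd22, Cd37 and Fcrla, which encode surface molecules or a cytoplasmic protein of mature B cells. Across the 9 tumors its log2 CPM rose with the mean log2 CPM of these 7 genes (Pearson's r = 0.908, exact permutation p = 0.000962, Benjamini-Hochberg adjusted p = 0.00481 over 5 relations, Spearman's rho = 0.883, exact p = 0.00308, adjusted p = 0.0154). Without the 2 tumors farthest from the median of Vpreb3, Smc3/Bcl6 tumors 4 and 5, r was 0.898, and without Smc3/Bcl6 tumor 2 it was 0.930. Among the 7 tumors labelled lymph node r was 0.899 (exact permutation p = 0.00694), among the 6 Smc3/Bcl6 tumors it was 0.914 (exact permutation p = 0.0181), and 3 Bcl6 tumors are too few for a value. Without Smc3/Bcl6 tumor 4, r was 0.838 and the adjusted p became 0.0504, from an exact permutation test. The genes were measured in the same libraries, and the part of the B cell share of each tumor in the relation was not tested.

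**Figure D2:**
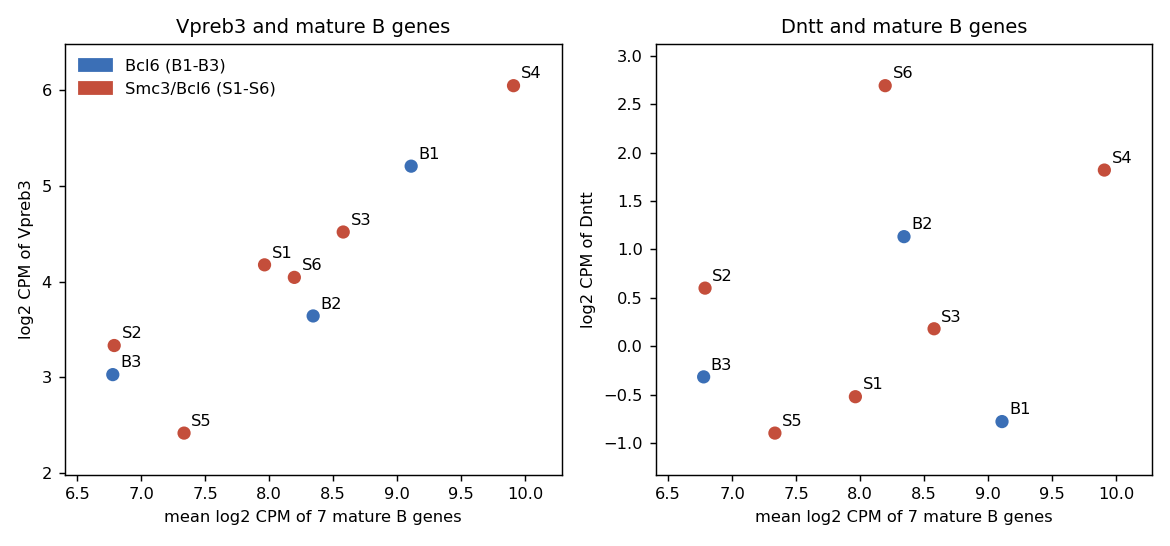
Log2 CPM of Vpreb3 (left) and of Dntt (right) against the mean log2 CPM of 7 mature B genes, 1 point per tumor, for Bcl6 tumors 1 to 3 (B1-B3) and Smc3/Bcl6 tumors 1 to 6 (S1-S6). Vpreb3 rises with the mature B genes (r = 0.908), whereas Dntt scatters (r = 0.336).

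Vpreb3 was then expressed relative to these mature B genes, and the genotypes differed by less than the spread between tumors. Its log2 CPM minus their mean was -4.12 ± 0.51 (SD, n = 3) in Bcl6 tumors and -4.04 ± 0.49 (SD, n = 6) in Smc3/Bcl6 tumors, a difference of 0.08 (p = 0.857, two-sided exact permutation test). The sign of this difference turned without Smc3/Bcl6 tumor 2 (-0.04) and without Bcl6 tumor 2 (-0.21). Smc3/Bcl6 tumor 5 was the lowest at -4.92, and Smc3/Bcl6 tumor 2 was the highest at -3.46. The relation of Vpreb3 with the 8 T cell genes did not pass (r = -0.49, exact permutation p = 0.185, adjusted p = 0.462, rho = -0.35, exact p = 0.359), with r = -0.49 among the 7 lymph node tumors.

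None of the relations of Dntt passed. Its r with Vpreb3 was 0.330 (exact permutation p = 0.385, adjusted p = 0.481, rho = 0.267, exact p = 0.493) and -0.04 without Smc3/Bcl6 tumors 4 and 6. With the mature B genes it was 0.336 (exact permutation p = 0.375, adjusted p = 0.481, rho = 0.267, exact p = 0.493) and -0.05 without the same tumors. With the 8 T cell genes it was -0.14 (exact permutation p = 0.712, adjusted p = 0.712, rho = 0, exact p = 1) and 0.625 without these tumors. Among the 7 lymph node tumors these r were 0.635, 0.575 and -0.68, with exact permutation p = 0.120, 0.176 and 0.0982, so that the last differed most from its value over all 9 tumors.

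The 3 genes whose log2 CPM was most like that of Dntt over the 9 tumors, of 13809 compared, were Il16 (r = 0.932), which encodes a cytokine precursor, Fhdc1 (r = 0.907), which encodes a formin family protein, and Arhgap8 (r = 0.901). Il16 ranged from 161.7 to 265.8 CPM. Fhdc1 was highest in the same tumors as Dntt, with 8.65 CPM in Smc3/Bcl6 tumor 6 and 4.78 CPM in tumor 4, and it was at most 1.08 CPM elsewhere. For Vpreb3 they were Atp5sl (r = 0.952), Ccdc79 (r = 0.951) and Map7 (r = 0.940), the last of which encodes a microtubule-associated protein. Ccdc79 had 18.9 CPM in Smc3/Bcl6 tumor 4 and at most 2.99 CPM in the other tumors. These values describe 9 libraries.

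The tumors with the most Igll1 and Dntt reads were also those with the highest levels of Alas2, the enzyme that starts heme synthesis in red cell precursors. Alas2 had 996.1 CPM in Smc3/Bcl6 tumor 4 and 316.9 CPM in tumor 6, and at most 198.4 CPM in the other 7 tumors. Alas2 was singled out after its values had been seen. All 6 erythroid genes examined were highest in Smc3/Bcl6 tumor 4, but 3 of them were higher in Smc3/Bcl6 tumor 2 than in tumor 6. The summed CPM of 6 erythroid genes was 43.2 to 1469 in Bcl6 tumors and 121.7 to 12490 in Smc3/Bcl6 tumors. Smc3/Bcl6 tumor 2 had a larger sum (4652) than tumor 6 (3999), but it had 198.4 CPM of Alas2, 0 counts of Igll1 and 1.37 CPM of Dntt. Of the 6 erythroid genes, 1 was called higher in Smc3/Bcl6 tumors and 0 lower, and their median log2 fold change was 2.09 against 0.06 over all genes tested. The call was lost without Smc3/Bcl6 tumor 4, Bcl6 tumor 1 or Bcl6 tumor 2. Alas2 was not called (log2 fold change 2.12, standard error 1.64, adjusted p = 1 by edgeR). The part of erythroid cells in the Igll1 and Dntt reads was not tested.

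**Figure D3:**
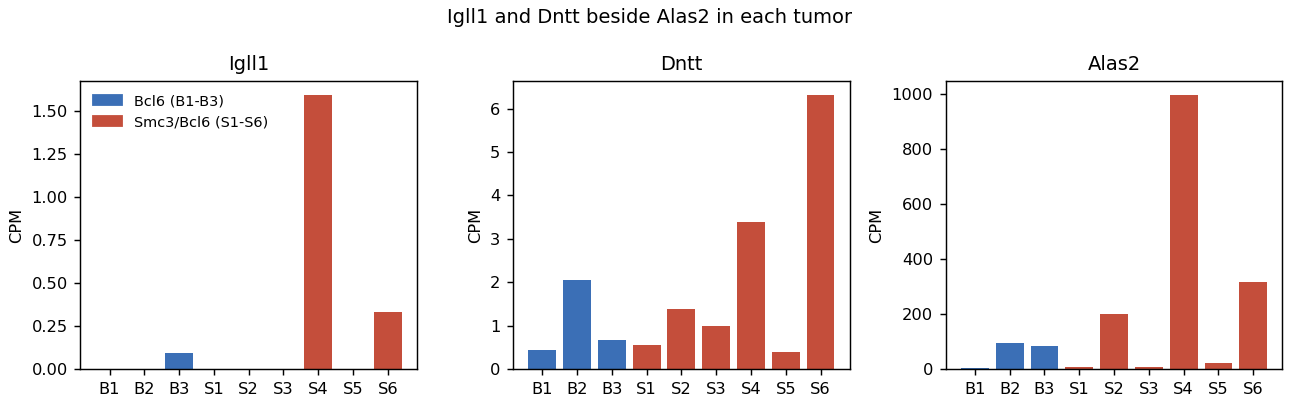
CPM of Igll1, Dntt and Alas2 (vertical axes, different scales) in Bcl6 tumors 1 to 3 (B1-B3) and Smc3/Bcl6 tumors 1 to 6 (S1-S6). S4 and S6 are the tumors with the highest level of each gene, and Alas2 reaches 996.1 CPM in S4 and 316.9 CPM in S6.

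Other genes of precursor B cells were examined in the same fit. Of 12 such genes 10 were tested, 0 were called higher and 1 was called lower in Smc3/Bcl6 tumors. The gene called lower was Cd93, a surface protein of early B cells that myeloid and endothelial cells also carry. Its mean was 6.97 ± 5.16 CPM over the 3 Bcl6 tumors and 2.77 ± 1.11 CPM over the 6 Smc3/Bcl6 tumors (SD), and edgeR gave a log2 fold change of -1.33 ± 0.55 (standard error) with an adjusted p of 1. Bcl6 tumor 3 had 12.9 CPM of Cd93, and the groups overlapped. Without that tumor the call was lost (log2 fold change -0.53 in edgeR). Bcl6 tumor 3 also had 208.7 CPM of Mpo, the myeloperoxidase of granulocyte precursors, against at most 17.6 CPM elsewhere, and the part of myeloid cells in the Cd93 value was not tested. Mpo was the gene called lower among 6 myeloid genes (log2 fold change -3.84, adjusted p = 1 by edgeR), and without Bcl6 tumor 3 its fold change turned to 2.05 with no call.

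Kit, a receptor of early progenitors and mast cells, reached 264.1 CPM in Smc3/Bcl6 tumor 6 and 157.0 CPM in tumor 1, where Igll1 was at 0. Il7r, the interleukin 7 receptor of pro-B cells and T cells, was highest in Smc3/Bcl6 tumor 3 at 113.6 CPM and had 17.3 and 10.2 CPM in tumors 4 and 6. Flt3, a cytokine receptor of lymphoid progenitors, was highest in Smc3/Bcl6 tumors 4 and 6 at 34.8 and 21.6 CPM, and it lay between 2.13 and 14.2 CPM elsewhere. Arpp21 was also highest in these tumors, at 0.532 and 1.33 CPM. Which cells gave the Flt3 and Arpp21 reads was not tested. Sox4 had 2.19 and 2.33 CPM in tumors 4 and 6, against 2.38 CPM in Bcl6 tumor 1, its highest. Some other genes of the list were not high in both tumors. Myb was lowest of all tumors in tumor 4 at 6.71 CPM, but it had 18.0 CPM in tumor 6, against 18.8 CPM at most. Lef1 had 6.18 and 1.33 CPM in tumors 4 and 6, against 81.3 CPM in Smc3/Bcl6 tumor 3. The summed CPM of the 8 T cell genes was 194.4 and 215.3 in tumors 4 and 6, against 2140 in tumor 3. Smc3/Bcl6 tumor 2 had a sum of 2245 with 6.97 CPM of Lef1. The part of T cells in the Lef1 value, and in the median of the list, was not tested. The log2 fold changes were 1.74 for Kit, -1.04 for Il7r and 0.60 for Flt3, with adjusted p = 1 for each by edgeR. The median over the 10 tested precursor genes was -0.69. Kit, Il7r and Flt3 were singled out after their values had been seen, and so were Arpp21, Sox4, Myb and Lef1.

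Immature T cells also use Rag1, Rag2 and Dntt, and their genes were examined for that reason. Ptcra, the partner of the T cell receptor β chain before the α chain is made, had 5 counts in all and 0 in each Bcl6 tumor. Of the 6 immature T genes 5 were tested and 0 were called in either direction. Themis, a signaling protein of developing and mature T cells, had the smallest p. Its mean was 71.7 ± 57.8 CPM over the 3 Bcl6 tumors and 26.0 ± 41.2 CPM over the 6 Smc3/Bcl6 tumors (SD), and edgeR gave a log2 fold change of -1.46 ± 1.26 (standard error) with an adjusted p of 1. The levels of Themis in Smc3/Bcl6 tumors 4 and 6, which had the most Dntt, were 8.44 and 1.60 CPM. The 8 mature T cell genes had 0 calls, and Cd5, with the smallest p, had a log2 fold change of -1.19 (adjusted p = 1 by edgeR).

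The end joining machinery that seals the breaks made by the recombinase is expressed in most cell types. All 12 of these genes were tested, 0 were called, and their median log2 fold change was 0.01. Poll, a DNA polymerase that fills gaps at the ends, had the smallest p. Its mean was 14.7 ± 2.08 CPM over the 3 Bcl6 tumors and 18.7 ± 2.96 CPM over the 6 Smc3/Bcl6 tumors (SD), and edgeR gave a log2 fold change of 0.35 ± 0.25 (standard error) with an adjusted p of 1. The summed CPM of the list was 433.9 to 560.4 in Bcl6 and 414.0 to 559.2 in Smc3/Bcl6 tumors.

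Among 14 transcription factors of the B lineage and of the Rag genes, 0 were called, with a median log2 fold change of 0.08. Irf4, which acts in light chain rearrangement and in plasma cells, had the smallest p (log2 fold change 0.57, standard error 0.39, adjusted p = 1 by edgeR). Ebf1, which activates Vpreb1, Igll1 and other genes of early B cells, had 219.9, 101.9 and 24.2 CPM in the Bcl6 tumors and 77.6, 2.75, 123.0, 532.2, 40.2 and 150.9 CPM in the Smc3/Bcl6 tumors. Its level was highest in Smc3/Bcl6 tumor 4, which also had the most Vpreb3 and Igll1, and lowest in tumor 2, which still had 9.93 CPM of Vpreb3. Tumor 4 also had the highest mean log2 CPM of the mature B genes (9.91). Bcl6 tumor 1, second in Ebf1, had 0 counts of Igll1. Vpreb1 was highest in Smc3/Bcl6 tumor 6 at 0.532 CPM, against 0.332 CPM in tumor 4. Ebf1 was singled out after its values had been seen. The log2 fold change of Ebf1 was 0.42 (standard error 1.16, adjusted p = 1 by edgeR). Irf4 and the other factors are plotted beside Dntt and Vpreb3.

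**Figure D4:**
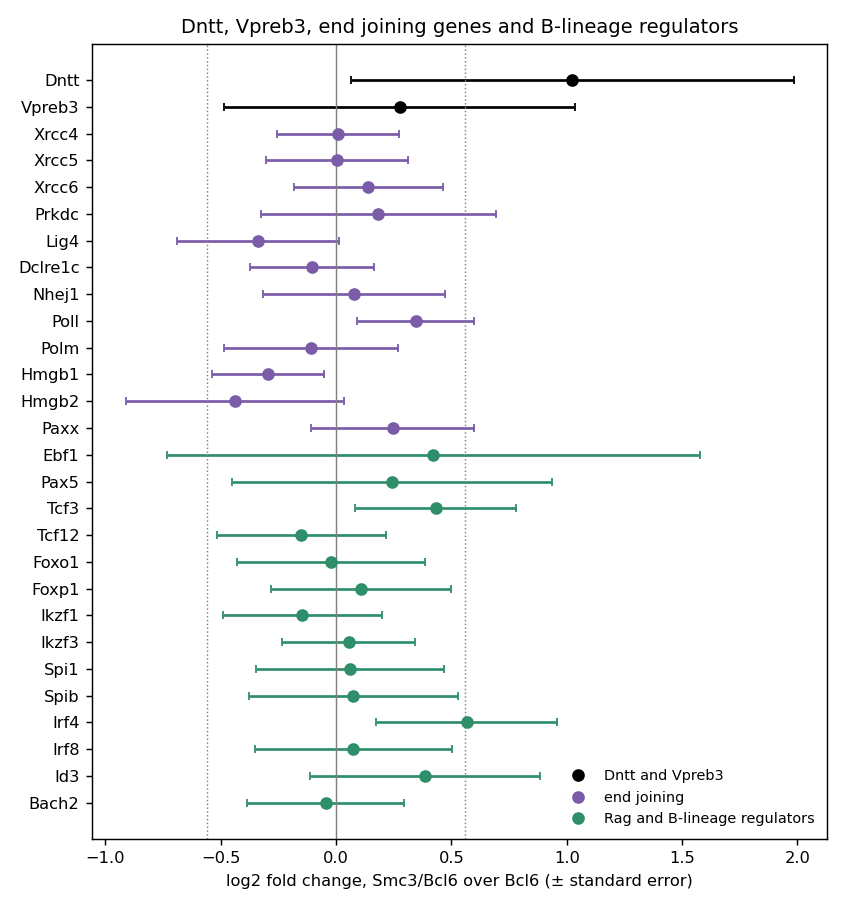
Log2 fold change (horizontal axis, Smc3/Bcl6 over Bcl6, with standard error) of Dntt and Vpreb3, 12 end joining genes and 14 B-lineage regulators, with dotted lines at the fold change threshold of 0.56 in each direction. Dntt lies at 1.02 and Vpreb3 at 0.28, and no gene of the plot had an unadjusted p below 0.1.

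Partners of the receptor chains were examined next. Of 11 receptor partners 9 were tested, 0 were called, and their median log2 fold change was 0.45. Blnk, the adaptor that carries the signal of the pre-B and B cell receptors, had the smallest p (log2 fold change 0.62, standard error 0.42, adjusted p = 1 by edgeR). Of the mature B genes 7 were tested with 0 calls and a median of 0.36, Cd37 having the smallest p (log2 fold change 0.57, adjusted p = 1 by edgeR). Of 7 germinal center genes 0 were called, with a median of -0.08. Of 6 plasma cell genes 0 were called, and Mzb1, a chaperone of immunoglobulin secretion, had the smallest p (log2 fold change 1.33, adjusted p = 1 by edgeR). Iglc1, Iglc3 and Ighd were not analysed here.

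Sequence upstream of the transcription starts was searched for 3 motifs on both strands, in the 250 bases before each RefSeq start of GRCm38.p6. These starts can differ from those of GENCODE. Of the 250 bases, 190 in the window of Vpreb1 and 137 in that of Vpreb2 lie in GENCODE exons, and the window of Vpreb3 lies within its GENCODE gene span but outside its exons. The octamer ATTTGCAT, bound by Oct factors in immunoglobulin promoters, occurred in the window of Vpreb3 and in none of the other members, and it occurs in 1.60% of the 32851 windows searched. The EBF1 motif, TCCC and GGGA with any 2 bases between them, was found in 0.779% of windows and in none of the 7, and the E-box CANNTG, found in 66.2%, occurred between 1 and 5 times in each. The window of Vpreb3, the member with high counts, is chr10:75948050-75948299 on the plus strand, and the octamer is in capitals. A match is a description of these letters.
Vpreb3 window: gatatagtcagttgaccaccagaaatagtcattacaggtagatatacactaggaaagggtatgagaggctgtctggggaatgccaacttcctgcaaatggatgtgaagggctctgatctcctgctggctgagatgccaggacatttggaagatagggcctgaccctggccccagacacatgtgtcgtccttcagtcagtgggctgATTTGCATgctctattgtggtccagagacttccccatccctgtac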

How the data were processed

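RNA-seq libraries were prepared from 3 Bcl6 and 6 Smc3/Bcl6 tumors with the Illumina TruSeq RNA kit. The authors ran the nf-core RNA-seq pipeline, aligned reads to mm10 with STAR and GENCODE M12 transcripts and counted them per gene with featureCounts, and the deposited values are raw counts. The submitters' processing notes name DESeq2 1.28.1 and R 4.0.2. All columns had a sample (0 without), 0 rows named no gene, and 97.9% of the identifiers were found in GENCODE M21, which gave positions and exon lengths.

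Genotype and replicate were taken from the labels, which do not say how animals map to tumors, so p-values measure the spread between these samples. Genotypes were compared in edgeR 4.0.16 under R 4.3.3 with TMM normalization, filterByExpr by genotype and the quasi-likelihood test, and p-values were adjusted over the 14057 genes tested (Benjamini-Hochberg). Log2 CPM used a prior count of 2, and single values were compared over the 84 splits of 9 tumors into 3 and 6. Relations were limited to members with at least 50 counts in all, and intervals cover counting error only. Depth was 10156728 to 17774577 counts per tumor, so that 3 counts are 0.156 to 0.317 CPM. The functions were tested on simulated data.

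Alternatives were DESeq2 1.42.0, limma 3.58.1 with quality weights, other normalizations, filters and prior counts, the tissue label as a covariate, a replicate block, and each tumor left out. Deviations of tumors with the same number correlated across genes (r = 0.443, 0.113 and 0.155 for replicates 1 to 3). Tumors of different numbers were not compared, so these values cannot show whether the numbers pair the tumors. The labels state no shared origin, and the tumors of replicate 1 share the mesenteric label. The members and gene lists were chosen with earlier results of these data known. All 7 members are named, with every list gene past the thresholds or, where a list had none, its gene with the smallest p, and the 3 genes most like each tested member. Results on some genes, and an alternative that needs such a gene, are not reported here.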

Additional observations from a re-analysis of the deposited data

Results flagged for a closer look

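Among 16 measures examined in the 6 Smc3/Bcl6 tumors, 1 tumor lay far from the others in 2, where chance alone gives about 1 in 20 groups. The log2 CPM of Rag2 was higher in Smc3/Bcl6 tumor 6 than in the other 5, with a gap that took up 1 of the whole range (critical value 0.625), and it rests on 2 counts against 0 in each of the others. With 5 tumors tied at 0, any read in the other tumor gives this value, and 2 counts lie below the floor of 3, so nothing is read from it. The mean log2 CPM of the myeloid list was lowest in Smc3/Bcl6 tumor 1, with a gap of 0.901 of the range, and that tumor had 0 Rag1, 0 Rag2 and 0 Igll1 counts, with Dntt at 0.554 CPM and Vpreb3 at 17.9 CPM.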

How the results depend on the processing

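With tumors of the same number as a replicate block (numbers 1 to 3), Vpreb3 had a log2 fold change of -0.007 and Dntt of 0.05. The block changed no call of a member, and whether the numbers pair the tumors is not known. Without each tumor in turn, the log2 fold change of Vpreb3 ran from -0.36 to 1.12 and that of Dntt from 0.33 to 1.92. The differences in mean log2 CPM ran from -0.289 to 0.077 for Rag1, from -0.39 to 0.16 for Rag2, from 0.61 to 1.36 for Vpreb1 and from -0.34 to 0.75 for Vpreb3, and Vpreb3 relative to the mature B genes ran from -0.21 to 0.26. The relation of Vpreb3 with mature B genes was added in subsets after the data had been seen, with r from 0.838 to 0.939 without each tumor in turn and 0.914 among the 6 Smc3/Bcl6 tumors, where the adjusted p was 0.0903 by exact permutation and fewer samples were tested. With the tissue label as a covariate the log2 fold change of Vpreb3 was 0.65, and with limma that of Dntt was 0.40. The r of Dntt with T cell genes ran from -0.40 to 0.16. In 63 values from other settings and 142 from single tumors left out, direction and side of the threshold were the same. With single tumors left out, 10 more values were reversed and 1 fell short of the threshold. In other settings 1 was reversed and 1 fell short. The values that stayed the same include the numbers of members called, which were 0 in every fit. They also include the setting at an unadjusted p below 0.05, which repeats the fold changes of the main fit. The number of genes called in all was 302 and ranged over the settings from 77 at an unadjusted p below 0.05 to 1644 with limma. The cause of these shifts was not tested, and depth limits Rag1, Rag2, Vpreb1, Vpreb2 and Igll1, which have at most 30 counts each.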
